A study of Homo sapiens with 4 samples.

Results

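Epithelial cells are held together by tight junctions, desmosomes and gap junctions, and the genes described here encode the structural proteins of all 3. The set held every claudin on the array (CLDN symbols followed by a digit), the desmocollins DSC1 to DSC3, the desmogleins DSG1 to DSG4, the plakophilins PKP1 to PKP4, the zonula occludens genes (TJP) and the alpha and beta connexins (GJA and GJB), together with DSP, JUP, PPL, EVPL, OCLN, CGN and F11R. The members were picked by gene symbol, without a filter on measured values but with earlier results of these data known. They were 58 of the 27193 gene names on the array, and they were read by 72 of its 34127 probes. In tight junctions, claudins and occludin join neighbouring membranes and control the passage of ions and solutes between cells, while the zonula occludens proteins and cingulin tie them to actin from the cytoplasmic side. In desmosomes, desmogleins and desmocollins bind across the gap, and plakoglobin, plakophilins and desmoplakin connect them to keratin filaments. Connexins form the channels of gap junctions, which pass small molecules from cell to cell.

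The arrays compared 2 control samples with 2 samples labelled PAK1 shRNA, all of MCF10A.B2 cells, to find genes that differ in expression when the kinase PAK1 is depleted. MCF10A is an immortalized human mammary epithelial line, and the B2 derivative expresses a form of Her2 (ErbB2) that the synthetic crosslinker AP1510 activates. The shRNA against PAK1 was stably expressed and Tet inducible, and the labels call the other group control and PAK1 wild type without saying whether it carried an uninduced shRNA. Both groups were grown with horse serum, starved of serum for 3 h and given AP1510 for 15 min before total RNA was extracted. The labels do not say whether the samples of a group were separate cultures, and the series text mentions tumor derived cells where the sample labels name the cell line. Each p-value therefore measures only the spread between these 4 samples, which may be technical. In RNA from a whole culture, fewer cells of a type and less RNA per cell cannot be told apart.

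Expression was read with 1-colour Agilent arrays, and between 78.9% and 83.2% of the probes on an array were called well above background by the scanner software. All levels below are normalized log2 intensities of 1 probe, so a difference of 1 is a 2-fold change, and levels of different genes were not compared. PAK1 itself had levels of 11.19 and 11.27 in the control samples and 10.44 and 10.52 in the PAK1 shRNA samples. The groups did not overlap, and PAK1 in the shRNA cells was at 59.5% of control, a log2 fold change of −0.75 (SE 0.08), with an adjusted p = 0.000211 (limma, adjusted by Benjamini-Hochberg over all genes tested). The share of all genes whose groups do not overlap was not counted, so non-overlap here and below only describes the samples. The difference between the groups was wide: of 20729 genes well above background on all 4 arrays, 31.2% were called higher and 32% lower in PAK1 shRNA cells at an adjusted p under 0.05. All 10 interferon-stimulated genes of a fixed list were higher, with a median log2 fold change of 6.50, and all 10 proliferation genes were lower, with a median of −3.66. The part of these changes in the junction results was not tested.

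The basal epithelial character of MCF10A was checked on 8 markers, and all 8 were well above background on every array. Of these basal markers 3 were higher, 4 lower and 1 not called in PAK1 shRNA cells. Each summed level is the log2 of the intensity summed over the markers with a value on all 4 arrays. The brightest markers therefore weigh most in it. For the basal markers it was 18.54 to 18.69 in control cells and 18.34 to 18.37 in PAK1 shRNA cells. This sum left out LAMB3, at 17.07 and 16.90 in control cells and 18.24 in the 1 PAK1 shRNA sample with an unflagged spot. The lower basal sum therefore does not cover LAMB3, which moved the other way. Of 10 luminal markers 7 were above background on all arrays, with 3 higher and 2 lower, while PGR, ELF5 and KIT were at background on every array. The summed level of the luminal markers was 15.62 to 15.81 in control and 16.72 to 16.85 in PAK1 shRNA cells. MUC1 was the brightest marker in this sum, at 15.29 and 15.05 in control and 16.50 and 16.65 in PAK1 shRNA cells. KRT8 was not called (log2 fold change −0.10), and GATA3 (−0.49) and KRT19 (−1.02) were lower. The luminal sum left out KRT18, at 17.13 in the 1 control sample with an unflagged spot and 17.71 and 17.55 in PAK1 shRNA cells. Of 8 fibroblast markers the 3 above background on all arrays were higher. PDGFRB, above background on 3 arrays, was lower (log2 fold change −0.58, adjusted p = 0.00143 from limma). With PDGFRB included, the summed fibroblast level was 11.95 to 12.20 in control and 12.93 to 12.97 in PAK1 shRNA cells. DCN was the brightest marker in that sum, at 11.98 and 11.73 against 12.76 and 12.70. The markers PDGFRA, COL1A2, COL3A1 and THY1 were at background throughout. Of 5 endothelial markers 4 were above background on all arrays, with 1 higher and 1 lower. TEK, above background on 2 arrays only, was also called lower (log2 fold change −0.33, adjusted p = 0.00603 from limma). The endothelial sum, without KDR, was 10.03 to 10.08 against 9.68 to 9.74. Its brightest marker in control cells, PECAM1, fell (−1.56), while CDH5 was not called (0.15). Leukocyte markers (5) had 2 higher, and their sum, without CD14, was 9.59 to 9.62 against 9.80 to 9.93. CD14 was at 14.21 and 14.15 in control cells and 15.45 in the 1 PAK1 shRNA sample with an unflagged spot. The part of the luminal and fibroblast markers in the junction results was not tested.

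The junction families differed in their counts. Of the 58 members, 44 were well above background on all 4 arrays, and 16 of these 44 were higher and 10 lower in PAK1 shRNA cells, against 31.2% and 32% of all genes, so that 26 of 44 differed in either direction, against 63.2% of all genes. Of 21 tight junction members measured on all arrays, 11 were higher and 2 lower, with a median log2 fold change of 0.31, and 8 rose at least 2-fold, a size reached by 8.99% of all genes. Of 13 desmosome members 1 was higher and 6 were lower, with a median of −0.22, and none changed 2-fold. A fall of at least 2-fold was seen in 2 members (CLDN10 and GJA3), against 9.28% of all genes. Of 10 connexins 4 were higher and 2 lower, with a median of 0.24. The median over all 20729 genes was 0.02. A difference between the families was not tested.

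**Figure D1:**
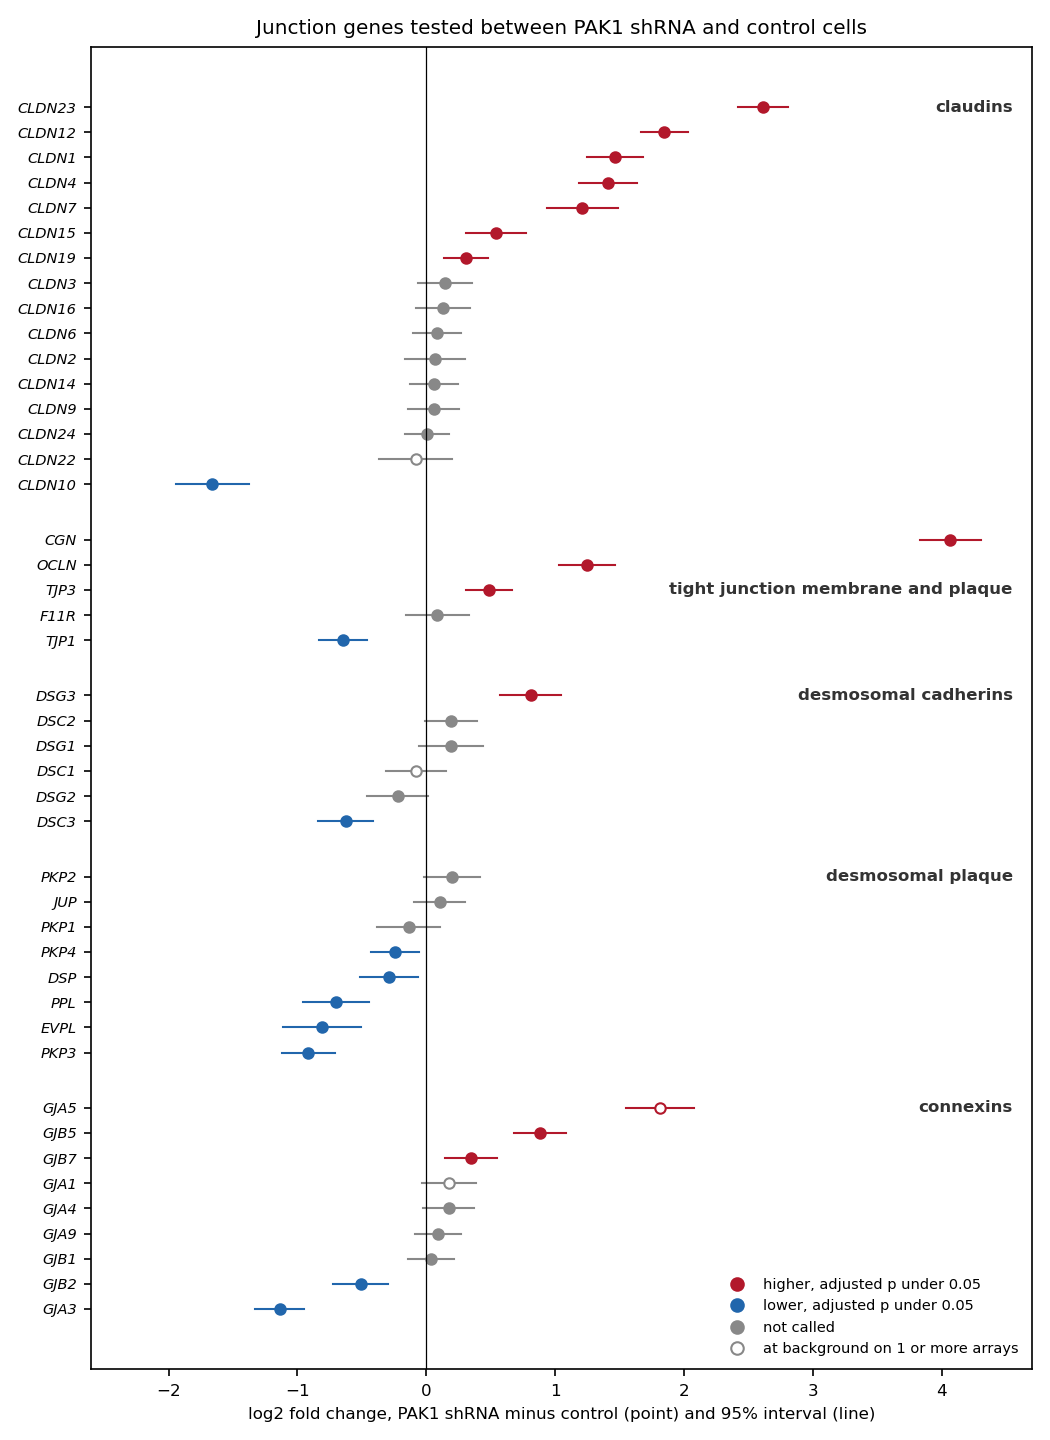
Log2 fold change (PAK1 shRNA minus control) of the junction genes reported singly, grouped by family, each with its 95% confidence interval as a line, in red or blue where it was called higher or lower at an adjusted p under 0.05, in grey where it was not called, and open where the gene was at background on 1 or more arrays (GJA5 passed the filter through the PAK1 shRNA arrays alone). Most called points of the tight junction families lie to the right of 0, up to 4.07 for CGN, and those of the desmosomal plaque lie to the left.

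Of the 8 tight junction members that rose at least 2-fold, 6 had a promoter in the RefSeq table used here. The sequences below are the 250 bases upstream of the first start that RefSeq lists for each gene (GRCh38.p14, read on the gene's strand), shown so that the start regions of members that rose together can be compared. Capitals mark matches, on either strand, to 1 of 6 short motifs: AACNNGTT (the grainyhead core), CAGGTG (an E-box), GGGCGG (a GC box), CCACACCC (a CACC box bound by KLF proteins), the interferon response element core and TGANTCA (AP-1).
CGN (chr1:151511137-151511386, plus strand): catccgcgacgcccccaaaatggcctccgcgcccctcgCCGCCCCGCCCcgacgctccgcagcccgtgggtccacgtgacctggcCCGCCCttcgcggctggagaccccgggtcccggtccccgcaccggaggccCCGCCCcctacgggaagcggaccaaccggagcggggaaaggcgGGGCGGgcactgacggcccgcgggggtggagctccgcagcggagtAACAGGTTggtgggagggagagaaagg
OCLN (chr5:69492297-69492546, plus strand): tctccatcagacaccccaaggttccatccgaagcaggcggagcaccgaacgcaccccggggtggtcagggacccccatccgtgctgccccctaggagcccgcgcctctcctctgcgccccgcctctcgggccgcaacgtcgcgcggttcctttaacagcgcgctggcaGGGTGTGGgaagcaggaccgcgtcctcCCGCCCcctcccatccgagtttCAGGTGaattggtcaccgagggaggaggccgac
CLDN1 (chr3:190322447-190322696, minus strand): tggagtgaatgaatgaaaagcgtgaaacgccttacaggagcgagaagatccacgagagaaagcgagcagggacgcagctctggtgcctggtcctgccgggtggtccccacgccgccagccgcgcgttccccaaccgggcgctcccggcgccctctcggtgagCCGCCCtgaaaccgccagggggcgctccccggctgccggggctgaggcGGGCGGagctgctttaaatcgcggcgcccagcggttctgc
CLDN4 (chr7:73830746-73830995, plus strand): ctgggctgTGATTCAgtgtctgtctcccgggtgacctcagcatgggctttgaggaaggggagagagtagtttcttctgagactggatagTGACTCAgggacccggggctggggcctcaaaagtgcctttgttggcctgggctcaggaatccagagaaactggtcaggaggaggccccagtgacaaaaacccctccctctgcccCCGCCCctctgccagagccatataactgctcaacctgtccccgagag
CLDN7 (chr17:7263214-7263463, minus strand): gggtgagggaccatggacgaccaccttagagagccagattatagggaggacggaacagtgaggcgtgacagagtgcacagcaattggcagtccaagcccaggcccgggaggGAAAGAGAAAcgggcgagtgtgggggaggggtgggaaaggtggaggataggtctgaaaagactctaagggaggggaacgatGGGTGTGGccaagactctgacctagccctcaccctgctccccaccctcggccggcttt
CLDN12 (chr7:90403211-90403460, plus strand): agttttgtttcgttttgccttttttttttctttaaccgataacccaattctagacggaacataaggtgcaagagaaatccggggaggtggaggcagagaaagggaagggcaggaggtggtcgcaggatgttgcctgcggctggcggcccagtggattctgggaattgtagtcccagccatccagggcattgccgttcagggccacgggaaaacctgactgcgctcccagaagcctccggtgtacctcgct
No motif was in all 6 windows. A GC box, held by 42.3% of promoters, was in CGN, OCLN, CLDN1 and CLDN4. The grainyhead core, held by 2.97% of 27305 promoters of the same length, began 27 bases before the CGN start, and the same window held 5 GC boxes, 2 of which share a base. The E-box, held by 17.5% of promoters, lay 33 bases before the OCLN start. The CACC box, held by 2.9%, was in OCLN and CLDN7, and the interferon response element core, held by 3.07%, was in CLDN7. CLDN4 held the AP-1 letters at 2 places, against 6.6% of promoters with at least 1, and the CLDN12 window held none of the 6. GC content ran from 54.4% in CLDN12 to 76.0% in CGN, against a median of 58% for all promoters.

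Over the members called on all 4 arrays, 9 that rose and 7 that fell had a listed promoter. A GC box was in 6 of the 9 and 5 of the 7, against 42.3% of all promoters. The 12 members that were measured on all arrays, had a promoter and were not called held a GC box in 7, an E-box in 3, the AP-1 letters in 2 and the CACC box in 0. The E-box was in 1 of the 9 (OCLN) and in 3 of the 7 (DSP, GJA3 and TJP1), and the AP-1 letters were in 2 of the 9 (CLDN4 and CLDN15) and in 0 of the 7. The CACC box was in 2 of the 9 and in 2 of the 7 (GJA3 and GJB2). A match is a description of letters in a window and not of binding, and starts other than the first, which RefSeq lists for OCLN and CLDN7, were not searched.

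CGN encodes cingulin, a cytoplasmic plaque protein of tight junctions that binds zonula occludens proteins and actomyosin. Its levels were 8.44 and 8.34 in control cells and 12.34 and 12.57 in PAK1 shRNA cells, at a probe on chr1:151511070-151511129 (hg19). CGN rose 16.8-fold, the largest change among the members, with a log2 fold change of 4.07 (SE 0.10, 95% interval 3.83 to 4.31, adjusted p = 9.46e-07 from limma). Among the 20729 genes on all arrays, 89 rose more. The gap between the groups was many times the spread within either, whose SDs were 0.07 and 0.16, and over the planned processing alternatives the value ran from 3.40 to 4.44.

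OCLN, which encodes the membrane protein occludin, moved the same way at a smaller size. Its levels were 8.62 and 8.46 in control cells and 9.73 and 9.85 in PAK1 shRNA cells (chr5:68849515-68849574). OCLN rose 2.38-fold (log2 fold change 1.25, SE 0.09, adjusted p = 4.88e-05), and a second probe for it gave 1.16. Both probes of OCLN therefore read a rise of more than 2-fold.

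The zonula occludens scaffold genes did not move together, as TJP1 fell and TJP3 rose. TJP1, which encodes ZO-1, had levels of 11.83 and 11.80 in control cells and 11.12 and 11.23 in PAK1 shRNA cells (chr15:29992527-29992586). TJP1 fell to 64.0% of control (log2 fold change −0.64, SE 0.08, adjusted p = 0.000438). TJP3, which encodes ZO-3, rose from 7.71 and 7.68 to 8.23 and 8.15, a log2 fold change of 0.49 (SE 0.07, adjusted p = 0.00137), and stood at −0.10 with the normexp fit on all spots and median centring.

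F11R encodes the junctional adhesion molecule JAM-A, an immunoglobulin type membrane protein. Its levels of 16.30 and 16.16 in control cells and 16.43 and 16.21 in PAK1 shRNA cells overlapped. No difference was detected at this probe (log2 fold change 0.09, 95% interval −0.16 to 0.33, adjusted p = 0.494), and a second probe gave 0.44. The sign of F11R turned to −0.02 without the first PAK1 shRNA sample, and cyclic loess called it higher (0.28, adjusted p = 0.0351).

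Claudins are 4-pass membrane proteins that form the strands of the tight junction, and their mix sets how tight the seal is and which ions pass. Of the 23 claudin genes on the array, 15 were well above background on all 4 arrays. Of these 15, 7 were higher and 1 lower in PAK1 shRNA cells, and 5 of the 7 rose at least 2-fold. Over all genes on all 4 arrays, 31.2% were higher and 32% lower, and 8.99% rose at least 2-fold. The median log2 fold change of the 15 was 0.15, with a range from −1.66 to 2.61. CLDN22 was above background on some arrays only, and CLDN5, CLDN8, CLDN11, CLDN17, CLDN18, CLDN20 and CLDN25 were not well above background on at least 2 arrays and were not tested.

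CLDN23 had the largest claudin rise, from 9.78 and 9.76 in control cells to 12.31 and 12.45 in PAK1 shRNA cells. This was a 6.11-fold difference (log2 fold change 2.61, SE 0.08, adjusted p = 1.97e-06). CLDN12, which lacks the tail motif through which most claudins bind zonula occludens proteins, had levels of 10.91 and 10.95 against 12.73 and 12.82 (chr7:90044941-90045000). CLDN12 rose 3.60-fold (log2 fold change 1.85, SE 0.07, adjusted p = 5.16e-06), and its second probe gave 1.32. In both genes every PAK1 shRNA sample lay more than 1 log2 unit above every control sample.

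CLDN1, CLDN4 and CLDN7 each rose between 2-fold and 3-fold. CLDN1, which is needed for the water barrier of the skin, had levels of 13.65 and 13.53 in control cells and 14.97 and 15.13 in PAK1 shRNA cells (chr3:190024001-190024060). It rose 2.76-fold (log2 fold change 1.46, SE 0.09, adjusted p = 2.51e-05). CLDN4, a sealing claudin, went from 10.995 and 11.11 to 12.37 and 12.56 (chr7:73246907-73246966), a 2.66-fold rise (1.41, SE 0.09, adjusted p = 3.3e-05). CLDN7, which also lies along the lateral membrane, went from 13.98 and 13.67 to 14.99 and 15.08, a 2.32-fold rise (1.21, SE 0.11, adjusted p = 0.000152). The control samples were farther apart for CLDN7 than for CLDN1 or CLDN4. None of the 3 genes had overlapping groups, a share that was not counted over all genes. The CLDN7 probe lies on chr17:7163822-7163986, a span longer than the probe, so it crosses an intron.

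CLDN10 was the 1 claudin that fell. Its isoforms form ion-selective pores between cells. Its levels were 9.48 and 9.65 in control cells and 8.05 and 7.76 in PAK1 shRNA cells (chr13:96231847-96231906), and it dropped to 31.6% of control (log2 fold change −1.66, SE 0.12, adjusted p = 4.41e-05). The smaller claudin rises were in CLDN15, a pore-forming claudin of the intestine (0.54, SE 0.10, adjusted p = 0.00293), and CLDN19, a claudin of the kidney tubule and of myelin (0.31, SE 0.07, adjusted p = 0.00888). The second probe of CLDN19 gave −0.51, so the direction of CLDN19 depends on the probe, and CLDN19 was not called with the mean over probes (−0.10, adjusted p = 0.273) or under median centring (0.18, adjusted p = 0.0819). CLDN15 was not called with the unpaired t-test (adjusted p = 0.0873) and stood at 0.07 with the normexp fit on all spots and median centring. The other 7, CLDN2, CLDN3, CLDN6, CLDN9, CLDN14, CLDN16 and CLDN24, were not called, with log2 fold changes from 0.00 to 0.15. CLDN3, CLDN6 and CLDN14 were dim, with control means of 6.67, 6.87 and 6.63, so their small values do not show that they were stable. Median centring called CLDN3 (0.41, adjusted p = 0.0231), CLDN6 (0.32, 0.0292), CLDN14 (0.33, 0.0151) and CLDN16 (0.28, 0.0241) higher. The processed signal also called CLDN3 higher (0.75, adjusted p = 0.00771). With the normexp fit on all spots and median centring all 7 were called lower, from −1.32 for CLDN14 to −0.52 for CLDN9. CLDN22 and CLDN24 are near-identical neighbours whose probes may read each other's transcript.

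**Figure D2:**
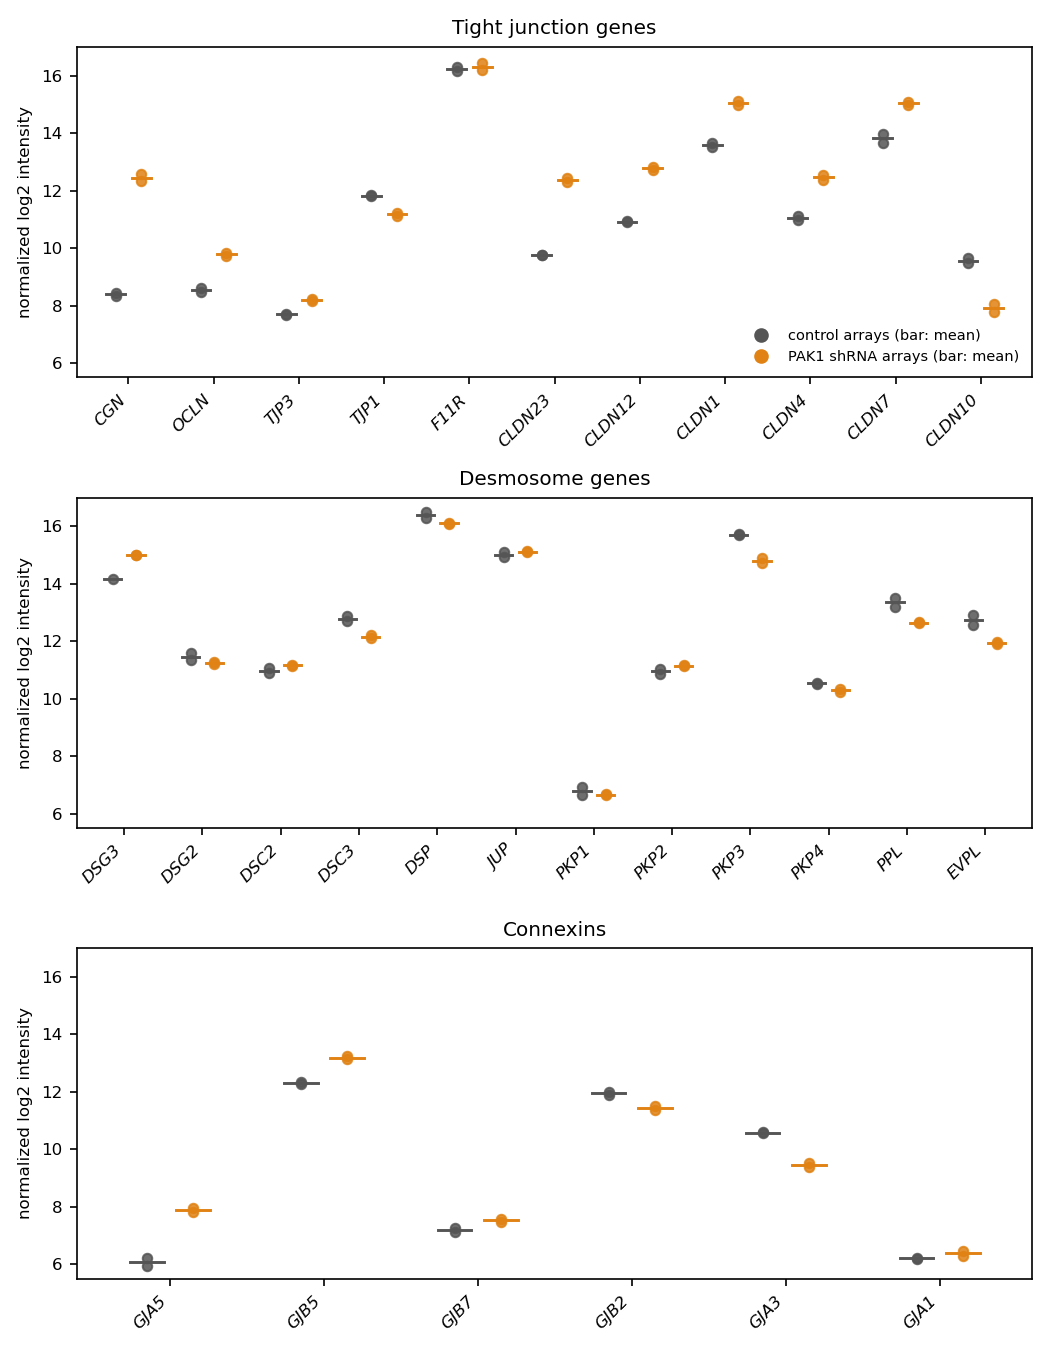
Normalized log2 intensity of the named junction genes on each of the 4 arrays, control samples and PAK1 shRNA samples in separate colours, 1 point per array. The points of CGN, CLDN23 and CLDN12 are widely separated between the groups, those of F11R and PKP1 overlap, and DSG3 has 1 control point because the other spot was flagged.

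Desmosomal cadherins are the adhesive proteins of the desmosome. Of the 7 genes, 5 passed background on every array, DSC1 was so on some arrays only, and DSG4 was not tested. Of the 5, 1 was higher and 1 lower in PAK1 shRNA cells, against 31.2% and 32% of all genes. DSG3, the desmoglein of the basal layers of stratified epithelium, had a level of 14.18 in the 1 control sample with an unflagged spot and 14.99 in both PAK1 shRNA samples. It rose 1.75-fold on these 3 arrays (log2 fold change 0.81, SE 0.09, adjusted p = 0.000807), and with the flagged spot kept the value was 0.92 (adjusted p = 0.000256). With 1 control sample, the fit assumes that it varies like the PAK1 shRNA samples and like other genes. DSC3, its basal desmocollin counterpart, moved the other way. Its levels were 12.87 and 12.70 in control cells and 12.20 and 12.12 in PAK1 shRNA cells (chr18:28576935-28576994), a fall to 64.9% of control (−0.62, SE 0.09, adjusted p = 0.000979), and its second probe gave −0.47. With the unpaired t-test DSC3 was not called (adjusted p = 0.0548).

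DSG2 and DSC2 are the cadherins that simple epithelia use, and neither was called. DSG2 had levels of 11.57 and 11.34 in control cells and 11.28 and 11.20 in PAK1 shRNA cells (log2 fold change −0.22, 95% interval −0.46 to 0.02, adjusted p = 0.0946). DSC2 had levels of 11.05 and 10.89 against 11.17 and 11.15 (0.19, 95% interval −0.01 to 0.40, adjusted p = 0.09). The groups did not overlap in either gene, but the gap between their nearest samples was smaller than the range of the control samples. DSG2 was called lower under median centring (−0.32, adjusted p = 0.0254) and with the authors' table (−0.26, adjusted p = 0.0476). Without the second control sample DSG2 was at −0.34, and without the first DSC2 was at 0.28. With the normexp fit on all spots and median centring DSG2 stood at 0.74 and DSC2 at 1.04.

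The desmosomal plaque links the cadherins to keratin. All 8 of its genes passed background on every array, and 5 were lower, 3 were not called and none was higher in PAK1 shRNA cells, with a median log2 fold change of −0.27. Over all genes, 32% were lower and 31.2% higher. PKP3, a plakophilin that binds most desmosomal cadherins, fell most. Its levels were 15.71 and 15.72 in control cells and 14.88 and 14.71 in PAK1 shRNA cells (chr11:404848-404907), or 53.1% of control (−0.91, SE 0.08, adjusted p = 0.000138). EVPL and PPL encode envoplakin and periplakin, plakins that bridge desmosomes and the cornified envelope of keratinocytes. EVPL had levels of 12.92 and 12.56 in control cells and 11.97 and 11.90 in PAK1 shRNA cells (chr17:74003008-74003067), or 57.1% of control (−0.81, SE 0.12, adjusted p = 0.00149). PPL had levels of 13.49 and 13.21 against 12.66 and 12.64 (chr16:4933068-4933127), or 61.5% of control (−0.70, SE 0.11, adjusted p = 0.00143). In all 3 genes the lowest control sample lay above the highest PAK1 shRNA sample. With the unpaired t-test EVPL (adjusted p = 0.091) and PPL (0.0802) were not called, while PKP3 was.

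DSP encodes desmoplakin, the plakin that carries keratin filaments to the plaque. Its levels were 16.50 and 16.29 in control cells and 16.13 and 16.09 in PAK1 shRNA cells (chr6:7586582-7586641), or 81.8% of control (−0.29, SE 0.09, adjusted p = 0.0328). The call was lost without the first control sample (−0.18, adjusted p = 0.118), without the first (−0.32, adjusted p = 0.0734) or the second PAK1 shRNA sample (−0.27, adjusted p = 0.111) and with cyclic loess (−0.09, adjusted p = 0.468). It was also lost with the unpaired t-test (adjusted p = 0.176), the processed signal (0.14), the mean over probes (0.056) and the authors' table (0.0563), or 8 settings in all beside the 2-fold threshold. PKP4, an armadillo protein of desmosomes and adherens junctions, was also lower by a small amount (−0.24, SE 0.08, adjusted p = 0.0335), and its other probes gave −0.53 and −0.27. The PKP4 call was lost without the first (adjusted p = 0.1) or the second control sample (0.0746), without the second PAK1 shRNA sample (0.179), with the unpaired t-test (0.103) and with the processed signal (0.0528).

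The remaining plaque genes were JUP, PKP1 and PKP2. JUP encodes plakoglobin, which desmosomes share with adherens junctions, and its levels were 15.09 and 14.94 in control cells and 15.11 and 15.12 in PAK1 shRNA cells (0.10, 95% interval −0.10 to 0.30, adjusted p = 0.32). PKP1, the plakophilin of suprabasal cells, had levels of 6.67 and 6.92 against 6.67 and 6.65 (−0.14, 95% interval −0.38 to 0.11, adjusted p = 0.288), and its sign turned to 0.14 under median centring. PKP2 had levels of 10.85 and 11.05 against 11.13 and 11.16 (0.20, 95% interval −0.02 to 0.42, adjusted p = 0.1). PKP1 values overlapped between the groups, and those of JUP and PKP2 lay close together. Cyclic loess called JUP higher (0.31, adjusted p = 0.017), and PKP2 was called higher without the second control sample (0.30, adjusted p = 0.0336).

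The falls of TJP1, DSC3 and the plaque genes called lower changed sign only in a setting chosen after the data were seen. It combined another background fit with another normalization. With the normexp fit on all spots together with median centring, TJP1 was at 0.36, DSC3 at 0.50, PKP3 at 0.36, EVPL at 0.30, PPL at 0.49, DSP at 1.02 and PKP4 at 0.51, so each of these signs reversed. In that setting PAK1, the target of the shRNA, was at 0.16. There CGN, OCLN, CLDN23, CLDN12, CLDN1, CLDN4 and CLDN7 were called higher, with values from 1.16 for OCLN to 3.88 for CGN. However, 26 of 44 members were called higher and 16 lower there. Members not called in the main fit moved too, F11R to 1.39, DSC2 to 1.04 and CLDN14 to −1.32. These calls therefore do not add to the evidence for the rises. On the control arrays single spots had a local background of up to 26111 and 41412, against 64 and 60.5 on the PAK1 shRNA arrays, and the fitted background mean on all spots was −666 and −740 against −10.7 and −10.2. Over the other settings none of these 7 falls changed sign.

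**Figure D3:**
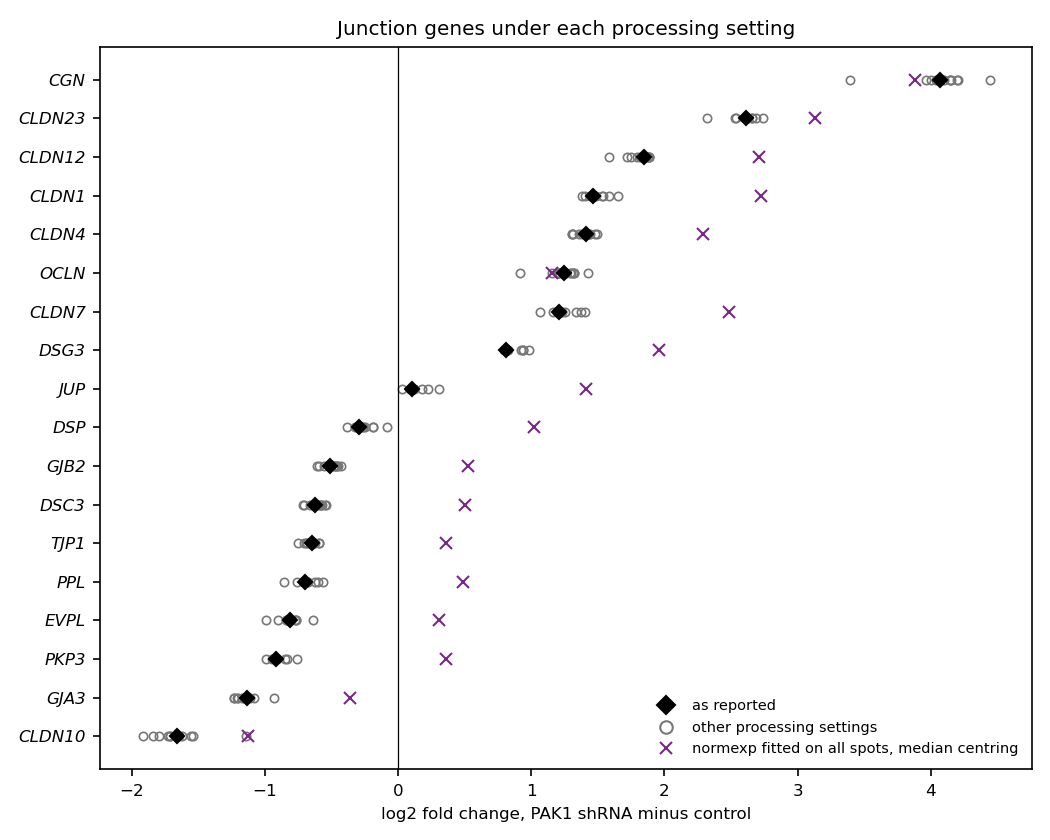
Log2 fold change (PAK1 shRNA minus control) of the named junction genes under the main processing and each alternative, 1 row per gene and 1 point per setting. The points of CGN run from 3.40 to 4.44 and stay right of 0, whereas PKP3, EVPL, PPL, DSC3, DSP, GJB2 and TJP1 have 1 point right of 0, the cross that marks the normexp fit on all spots with median centring.

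Of the 14 connexin genes, 10 passed background on every array, 4 of them higher and 2 lower in PAK1 shRNA cells. The shares over all genes were 31.2% and 32%. GJA10 and GJB6 were not tested. All 4 of these 10 that rose were beta connexins. The alpha connexin GJA5, outside the 10 because it was at background in control cells, was also higher. GJB5, a connexin of skin, had levels of 12.27 and 12.34 in control cells and 13.26 and 13.12 in PAK1 shRNA cells (chr1:35223309-35223368), a 1.84-fold rise (0.88, SE 0.08, adjusted p = 0.000145). Both PAK1 shRNA samples lay above both control samples for GJB5. GJB7 was higher by 0.35 (SE 0.08, adjusted p = 0.0105). The GJB7 call was lost without the second control sample (adjusted p = 0.0506), without the second PAK1 shRNA sample (0.058) and with the unpaired t-test (0.0913), and GJB7 stood at −0.63 with the normexp fit on all spots and median centring.

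GJB2 and GJA3 fell. GJB2 encodes connexin 26, a channel of the inner ear, skin and breast epithelium, and its levels were 11.90 and 11.99 in control cells and 11.35 and 11.52 in PAK1 shRNA cells (chr13:20761915-20761974). It was at 70.2% of control (−0.51, SE 0.09, adjusted p = 0.00248), was not called with the unpaired t-test (adjusted p = 0.0703), and was at 0.52 with the normexp fit on all spots and median centring. GJA3, a lens connexin whose gene lies beside GJB2 on chromosome 13 (chr13:20712635-20712694), had levels of 10.60 and 10.57 against 9.51 and 9.38. GJA3 dropped to 45.5% of control (−1.14, SE 0.08, adjusted p = 4.04e-05), and was at −0.36 with the normexp fit on all spots and median centring.

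GJA5, which encodes connexin 40 of heart and arterial endothelium, was not well above background on either control array. Its measured levels were 5.94 and 6.20 in control cells and 7.95 and 7.82 in PAK1 shRNA cells, so it was at least 3.29-fold higher, taking for each control array the higher of its own signal and the lowest signal well above background. It passed the filter through the PAK1 shRNA arrays alone, so no p-value is given for it. The size depended on the background fit: the measured log2 difference was 0.98 with normexp fitted on all spots, below the bound's 1.72, and it ran up to 4.78 over the other settings. GJA5 was at −0.15 with the normexp fit on all spots and median centring. GJA1, which encodes connexin 43, was well above background on 1 array of each group only. Its levels of 6.18 and 6.23 in control cells and 6.47 and 6.29 in PAK1 shRNA cells gave no detected difference (0.17, 95% interval −0.03 to 0.38, adjusted p = 0.126), and it was called higher under median centring (0.52) and stood at −1.55 with the normexp fit on all spots and median centring. GJA4, GJA9 and GJB1 were not called, with log2 fold changes from 0.04 to 0.17. GJA9 and GJB1 were dim, with control means of 6.56 and 6.44. Median centring called GJA4, GJA9 and GJB1 higher, at 0.34 (adjusted p = 0.0113), 0.37 (0.0155) and 0.35 (0.0132). With the normexp fit on all spots and median centring they stood at −0.78, −1.35 and −1.48.

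Genes that work with these proteins were read from fixed lists in the same fit. Each count of a list below is to be read beside the 31.2% higher and 32% lower over all genes. Of 12 adherens junction genes, all on all 4 arrays, 7 were higher, 3 lower and 2 not called, with a median of 0.38. PVRL2, which encodes the adhesion protein nectin-2, led with levels of 12.90 and 12.76 in control cells and 15.01 and 15.17 in PAK1 shRNA cells (2.26, SE 0.09, adjusted p = 5.41e-06). CDH1, which encodes E-cadherin and is named here although its change fell short of 2-fold, had levels of 13.93 and 13.73 against 14.82 and 14.79 (0.97, SE 0.09, adjusted p = 0.000146). Both genes had every PAK1 shRNA sample above every control sample.

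Among 20 further tight junction genes measured on all arrays, 9 were higher, 4 lower and 7 not called, with a median of 0.21. LSR, which encodes the angulin that recruits tricellulin to three-cell contacts, was higher by 1.87 (SE 0.09, adjusted p = 9.48e-06). AMOTL2, an angiomotin family scaffold, was higher by 1.56 (SE 0.07, adjusted p = 9.56e-06). MARVELD3, a membrane protein of the occludin family, had levels of 9.46 and 9.27 in control cells and 7.39 and 7.25 in PAK1 shRNA cells (−2.05, SE 0.10, adjusted p = 9.14e-06), against the direction of OCLN. CXADR, the coxsackievirus and adenovirus receptor, was lower by the same rule (−1.79, SE 0.08, adjusted p = 6.39e-06). Of 12 polarity genes on all arrays 5 were higher and 4 lower with a median of 0.05, and PARD6G was at −1.23 (adjusted p = 3.1e-05). Of 7 other connexins and pannexins 2 were higher and 2 lower with a median of 0.11, among them PANX1, a pannexin channel, at 1.70 (adjusted p = 3.5e-05) and GJC1, which encodes connexin 45, at −1.92 (adjusted p = 4.18e-06).

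Regulators of epithelial junction genes moved in both directions. Of 18 on all arrays, 7 were higher, 8 lower and 3 not called, with a median of 0.12. Over all genes, 31.2% were higher and 32% lower. KLF4, a zinc finger factor of epithelial differentiation, had levels of 7.20 and 7.17 in control cells and 10.58 and 10.97 in PAK1 shRNA cells (3.59, SE 0.13, adjusted p = 3.46e-06). EHF, an epithelial ETS factor, had levels of 10.76 and 10.54 against 7.88 and 7.88 (−2.77, SE 0.09, adjusted p = 2.6e-06). ZEB2 and SNAI2 both encode E-box binding repressors of epithelial genes, and they moved apart, with ZEB2 at 1.88 (SE 0.12, adjusted p = 2.75e-05) and SNAI2 at −1.47 (SE 0.09, adjusted p = 2.47e-05). In the same list ZEB1 was higher (1.32), and SNAI1 (−0.33) and TWIST1 (−0.36) were lower. Of 9 desmosome and cornified envelope partners 2 were higher and 4 lower with a median of −0.20. IVL and TGM1, which encode the envelope protein involucrin and its cross-linking enzyme, were higher by 1.27 (adjusted p = 1.96e-05) and 1.26 (adjusted p = 5.58e-05). The keratin genes KRT10 and KRT5 were lower, at −1.33 (adjusted p = 1.87e-05) and −1.14 (adjusted p = 0.000244), and the adjusted p of KRT5 reached 0.0537 over the other settings, while KRT5 stood at 0.12 with the normexp fit on all spots and median centring.

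**Figure D4:**
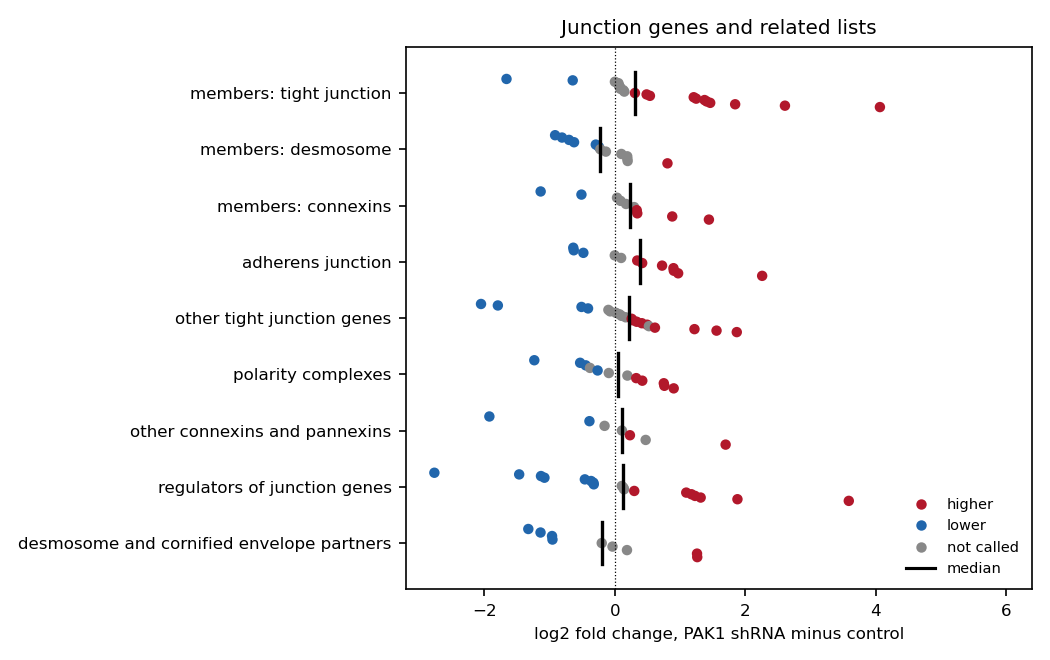
Log2 fold change (PAK1 shRNA minus control) of the tight junction, desmosome and connexin members and of the related gene lists, 1 point per gene well above background on all 4 arrays, coloured by call, with the median of each list as a bar. Medians run from −0.22 for the desmosome members to 0.38 for the adherens junction genes, and every list holds called genes on both sides of 0.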

How the data were processed

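Total RNA of 2 control and 2 PAK1 shRNA samples of MCF10A.B2 cells was hybridized in 1 colour (Cy3, 0.5 ug RNA labelled) to Agilent arrays on 1 slide. Samples were grouped by the titles of the sample labels. The authors deposited the spot intensity of each array as Agilent Feature Extraction wrote it (version 9.5 per the submitters' processing notes, 9.5.3.1 per the file headers), without normalization between arrays. A second table the authors deposited holds normalized log2 values, with 24302 values per array and medians of 9.40 to 9.42, which was used as an alternative. Across probes it rose with the log2 values here with a slope of 1.03, so it is on a log2 scale, and its centring is unknown. Coordinates of probes come from the scanner files (hg19), and no annotation of that build was used, so exons and UTRs are not given. All 58 member symbols are current RefSeq symbols. Promoter sequences are from RefSeq (GRCh38.p14) and were found for 39 of the 58 members.

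Intensities were background corrected with normexp (offset 50), with its parameters fitted without spots of flagged local background, control spots were dropped, and arrays were quantile normalized. Outlier-flagged spots were left out and spots of a probe averaged. A probe was tested if it was well above background on at least 2 of the 4 arrays, and a gene with several tested probes was represented by the brightest. This left 22270 genes, which were tested in R 4.3.3 with limma 3.58.1 (lmFit, eBayes). P-values were adjusted by Benjamini-Hochberg over all of them, with a threshold of 0.05. Of these, 6762 were higher and 6940 lower, with a median log2 fold change of 0.02. Members were counted where every array read them well above background. The methods of the study name normexp, quantile normalization and limma's moderated test. The script was tested on simulated data. The number of arrays limits the precision.

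The members, lists and alternatives were chosen with earlier results of these data known. Values on each array are given for members changed at least 2-fold with an adjusted p under 0.05, members at background in 1 group, and a fixed list of the main tight junction, desmosome and connexin genes. Of the related lists, up to 4 genes changed at least 2-fold are named, largest first. TJP3 and GJB5 with their array values, CDH1, ZEB1, SNAI1, TWIST1, and members named with a fold change only were added to these after their values were seen. Each step from background correction to the choice of probe, test and threshold was varied in turn, as were the use of the authors' table, a replicate block and the arrays included. Some members are counted but not reported here singly.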

Additional observations from a re-analysis of the deposited data

How the results depend on the processing

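Across the other processing settings, PAK1 and 27 named members gave 495 values. Of these, 463 had the same sign and the same call, 22 lost and 8 gained a call, and 2 uncalled genes reversed: PKP1 was at 0.14 under median centring (adjusted p = 0.396 from limma) and F11R at −0.023 without the first PAK1 shRNA sample (adjusted p = 0.881), within a range of −0.023 to 0.19 over the arrays left out. The unpaired t-test called 8581 genes, against 13702 by limma, and 4 members as lower against 10. Asking for a 2-fold change as well left 3916 genes, with 9 members higher and 2 lower. Leaving out 1 array at a time gave 11528 to 12582 genes called, 15 to 18 members higher and 8 to 10 lower. With the normexp fit on all spots and median centring, chosen after seeing the data, 26 members were higher, 13 of them among the 16, and 16 were lower, 2 of them among the 10. There DSC3 was at 0.50, DSG2 at 0.74, DSP at 1.02, EVPL at 0.30, GJA1 at −1.55, GJA5 at −0.15, GJB2 at 0.52, PAK1 at 0.16, PKP3 at 0.36, PPL at 0.49 and TJP1 at 0.36, all reversed, and the cause was not tested. The median over all genes was 0.14 under median centring, with 23 members higher and 11 lower, and 0.12 with the processed signal scaled to its 75th percentile, with 19 and 8.

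A replicate block in the fit gave 13944 called genes, with 17 members higher and 10 lower. Same-numbered samples did not deviate together (correlation of their deviations across 21296 genes 0.02), so the numbers were not taken as pairs. Without the first control sample DSG3 had no value. No slide block could be fitted, because all arrays lay on 1 slide. Members near background (among them GJA1, PKP1, GJA5, GJA9, GJB1, CLDN3, CLDN6 and CLDN14) are limited by signal over background. The 2 samples a group limit every value.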

Other observations

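Some members were read by probes that disagreed in size or direction. The probes of CLDN19 gave log2 fold changes of 0.31 and −0.51, and those of F11R gave 0.09 and 0.44. In the second F11R probe the control samples stood apart at 14.22 and 13.43, while the PAK1 shRNA samples were at 14.33 and 14.20. The probes of OCLN (1.25 and 1.16), DSC3 (−0.62 and −0.47), DSP (−0.29 and −0.24), GJB7 (0.35 and 0.37) and PKP4 (−0.24, −0.53 and −0.27) had the same sign.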
